A study of Mus musculus with 4 samples.

Results

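Gata1, Klf1 and Gfi1b encode 3 transcription factors of the red cell lineage. They were taken by name from a table of 3624 genes measured in single cells of mouse fetal liver, and all 3 were present. The cells came from embryos at day E14.5 on the C57Bl/6J strain and had been sorted as Lin-Sca1-Kit+CD34+, a gate that takes common myeloid and granulocyte-monocyte progenitors, while most megakaryocyte-erythroid progenitors are CD34-negative and fall outside it. One group was wild type. In the other, the -77 enhancer of Gata2 was deleted (Gata2-77-/-). The study took 2 embryos of each genotype, and each group had 2 libraries of the 10x Genomics Chromium platform, which counts each captured transcript once by a unique molecular identifier (UMI). The wild-type libraries carry the letters F and I in the deposited grouping, and the enhancer-deleted ones A and B. The labels do not say which letter is which embryo or whether embryos were littermates, and the spread between the 2 libraries of a group is the only replicate error here.

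GATA1 is a zinc-finger factor that binds WGATAR sites and is needed for the maturation of erythroid cells, megakaryocytes, mast cells and eosinophils. KLF1 is an erythroid factor that binds CACCC-type boxes in globin genes and in genes of the red cell membrane and heme synthesis. GFI1B is a repressor that recruits the demethylase LSD1 and the corepressor CoREST, and it is used by stem cells and by the erythroid and megakaryocyte lineages. GATA2 acts before GATA1 in these lineages, and its -77 element is an enhancer that drives Gata2 in progenitors. The comparison between the groups asks what becomes of the erythroid program in progenitors without that enhancer.

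The RefSeq promoter windows of the 3 genes (build GRCm38.p6, 300 bases around the annotated start, most of them before it) are shown because the 3 genes shared their highest levels in the same cells. Capitals mark matches to a GATA motif (TGATAA, with A also allowed as its first letter and G as its last) or to a KLF motif (CCNCNCCC), each read on both strands. All sequences run 5′ to 3′ along the strand of the gene.
Gata1, chrX:7967861-7968160, minus strand: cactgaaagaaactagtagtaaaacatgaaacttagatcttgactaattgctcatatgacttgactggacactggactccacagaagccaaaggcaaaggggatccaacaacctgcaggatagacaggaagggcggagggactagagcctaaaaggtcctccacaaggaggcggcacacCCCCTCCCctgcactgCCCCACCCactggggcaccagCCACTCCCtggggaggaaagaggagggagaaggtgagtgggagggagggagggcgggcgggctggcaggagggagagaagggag
Klf1, chr8:84901732-84902031, plus strand: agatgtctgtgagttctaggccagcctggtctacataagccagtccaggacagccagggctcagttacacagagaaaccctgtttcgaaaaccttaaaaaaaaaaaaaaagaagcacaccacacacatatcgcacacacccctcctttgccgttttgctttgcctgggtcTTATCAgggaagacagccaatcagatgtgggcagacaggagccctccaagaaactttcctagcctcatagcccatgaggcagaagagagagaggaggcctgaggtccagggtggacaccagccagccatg
Gfi1b, chr2:28621933-28622232, minus strand: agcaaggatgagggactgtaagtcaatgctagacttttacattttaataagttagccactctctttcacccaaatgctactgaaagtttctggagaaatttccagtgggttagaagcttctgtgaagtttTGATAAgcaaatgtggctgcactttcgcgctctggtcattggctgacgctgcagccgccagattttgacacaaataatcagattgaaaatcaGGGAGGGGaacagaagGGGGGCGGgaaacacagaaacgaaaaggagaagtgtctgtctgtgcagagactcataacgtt
The Gata1 window held 3 KLF matches, with first bases at -71, -55 and -34 from the start site, and no GATA match. The Klf1 window held 1 GATA match, read on the opposite strand and starting at -80, and no KLF match. The Gfi1b window held 1 GATA match at -120 and 2 KLF matches on the opposite strand at -28 and -12. No GATA match overlapped a KLF match in these windows. Over all 32851 RefSeq windows of this length, 29.8% held a GATA match and 49.5% a KLF match, so single matches of these kinds are common. A match is a description of the letters and not a binding site. In the GENCODE M21 annotation of mm10, Gata1 (ENSMUSG00000031162.14) lies at chrX:7959260-7978071 on the minus strand, Klf1 (ENSMUSG00000054191.8) at chr8:84901928-84905291 on the plus strand, and Gfi1b (ENSMUSG00000026815.14) at chr2:28609450-28621982 on the minus strand. None of the 3 protein-coding genes overlaps another annotated gene. The Gata1 window lies inside the annotated gene and not at its upstream end, so its matches describe only the RefSeq start site used here. The Klf1 and Gfi1b windows cover the upstream ends of their genes.

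The table held 4980 cells of each group, from 1938 to 3042 per library. Depth differed between the groups, with a median of 14293 UMIs per cell in the wild type and 7272 in the deleted group, so shares of cells are given after each cell was thinned to 4346 UMIs. Gata2, whose enhancer was removed, stood at 26.3 and 23.2 CPM (UMIs of a gene per 1000000 UMIs of the table) in the wild-type libraries and at 7.48 and 6.73 CPM in the deleted ones. Its transcript fell by 1.86 on the log2 scale (SE 0.187, edgeR adjusted p = 0.00792). UMIs of Gata2 do not show the deleted element itself, which lies outside the transcript. Xist, the RNA of the inactive X chromosome, was at 492 and 410 CPM in libraries I and B and at 1 and 0 UMIs in F and A, so it did not follow the genotype. Doublets were not called here, and barcodes shared between libraries were not counted.

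Gata1 and Klf1 transcripts fell by more than 10 times in the enhancer-deleted progenitors taken as a whole, while Gfi1b was lower by a smaller factor that did not pass the test. In such sums, fewer cells of a type and less RNA per cell cannot be told apart. Gata1 had 553 and 366 UMIs in wild-type libraries F and I, against 13 and 12 in deleted libraries A and B. These correspond to 13.8 and 10.8 CPM in the wild type and to 0.772 and 0.602 CPM in the deleted group. The groups were far apart, with a wild-type mean of 12.3 ± 2.12 CPM (SD, n = 2) that was 17.9 times the deleted mean of 0.687 ± 0.12 CPM (SD, n = 2).

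Klf1 had 785 and 485 UMIs in the wild-type libraries and 31 and 22 in the deleted ones, or 19.6 and 14.3 CPM against 1.84 and 1.10 CPM. The wild-type mean of 16.9 ± 3.72 CPM (SD, n = 2) was 11.5 times the deleted mean of 1.47 ± 0.521 CPM (SD, n = 2). Gfi1b had 388 and 282 UMIs in the wild-type libraries and 83 and 90 in the deleted ones. Its levels of 9.67 and 8.32 CPM against 4.93 and 4.52 CPM did not overlap either, but the ratio of the means was only 1.90. Both deleted libraries lay below both wild-type ones in 18.5% of all genes tested, so the separation alone is not particular to the 3 genes.

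In the edgeR quasi-likelihood fit to UMIs summed per library, 221 of 3622 tested genes were lower and 100 higher in the deleted group at an adjusted p under 0.05. Thus 6.1% of genes passed in the downward direction and 2.76% in the upward one. Gata1 fell by 4.22 on the log2 scale (SE 0.394, adjusted p = 0.00677) and Klf1 fell by 3.59 (SE 0.389, adjusted p = 0.00878). Gfi1b had a log2 difference of -0.98 (SE 0.295) and did not pass (edgeR adjusted p = 0.119). Its adjusted p was 0.00687 in DESeq2's Wald test and 0.0234 in edgeR with Xist as a covariate, so the call for Gfi1b rested on the model. Without deleted library A, the edgeR adjusted p was 0.0572 for Gata1 and 0.0545 for Klf1, with log2 differences of -4.44 and -4.03.

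**Figure D1:**
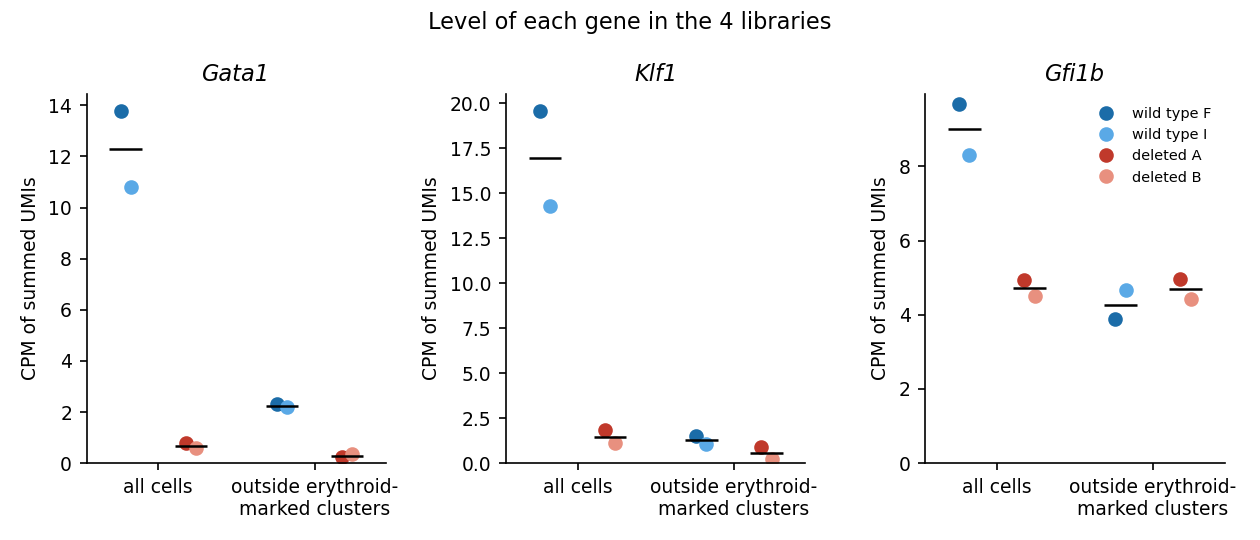
Level of Gata1, Klf1 and Gfi1b in CPM (y axis, UMIs per 1000000 UMIs of the gene table) in each of the 4 libraries, over all cells and over cells outside the erythroid-marked clusters. Points are libraries and lines are group means. Gata1 is at 13.8 and 10.8 CPM in the wild type and under 1 CPM in both deleted libraries, and Gfi1b in the right-hand set overlaps between the groups.

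To see where the transcripts were, cells were grouped into 17 clusters made without the 3 genes. Cluster 16 was erythroid-like, with Hba-a1, Hbb-bs and Alas2 among its leading genes and 17 erythroid markers. Cluster 12 carried 5 of the 17 measured erythroid markers (Car1, Car2, Blvrb, Tspo2 and Icam4). Beside them it carried 3 of 4 megakaryocyte and 4 of 5 mast cell or basophil markers, which are larger shares of their lists. It was led by Car1 and Ms4a2, with Gata2 among its top genes. This mixed cluster was left unnamed. It is called erythroid-marked here for its 5 erythroid markers only, and the label does not name its cell type. Clusters 3, 4 and 6 were like hematopoietic stem and progenitor cells (HSPC-like), with Hlf, Mycn, Hoxa9 and Flt3.

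In the wild type, Gata1 was highest in cluster 16, at 158 CPM in F and 136 CPM in I, followed by cluster 12 at 103 and 122 CPM. The order of these neighbours rests on means of 147 ± 15.1 and 113 ± 13.3 CPM (SD, n = 2 each). Cluster 14, an unnamed cluster led by the mast cell protease gene Cpa3, came next by its mean, at 12.2 and 7.89 CPM. The shallow cluster 15 had 0 and 3 UMIs of Gata1 in its 39 and 32 wild-type cells, so its place in the order is not set. HSPC-like cells had 3.65 and 5.47 CPM, and monocyte-like and neutrophil-like cells had under 1 CPM in each library. Clusters 12 and 16 together held 85.0% and 81.1% of all Gata1 UMIs of libraries F and I in 12.1% and 9.65% of their cells.

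Klf1 was the most sharply placed of the 3 genes. Its level was 662 and 609 CPM in the erythroid-like cluster 16 and 96.7 and 107 CPM in cluster 12, and these ranges did not overlap. Outside them it was 1.93 and 1.72 CPM in the Cpa3-led cluster and 1.11 and 0.513 CPM in HSPC-like cells. Monocyte-like cells had 1.04 and 1.06 CPM, below the Cpa3-led cluster and within the range of HSPC-like cells. These levels rest on 6 and 5 UMIs in the Cpa3-led cluster, 7 and 3 in HSPC-like cells and 6 and 7 in monocyte-like cells. The order of the latter classes is therefore not set. Clusters 12 and 16 held 93.1% and 93.0% of the Klf1 UMIs of libraries F and I.

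Gfi1b had a broader distribution. It stood at 70.8 and 71.95 CPM in cluster 16 and at 56.6 and 53.5 CPM in cluster 12, and then at 14.4 and 17.3 CPM in HSPC-like cells. The Cpa3-led cluster had 2.57 and 4.80 CPM of Gfi1b, so its order was the reverse of that of Gata1, which was higher there than in HSPC-like cells in both libraries. Clusters 12 and 16 held 64.2% and 47.9% of Gfi1b UMIs, and HSPC-like cells a further 23.5% and 35.8%.

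In the deleted libraries, clusters 12 and 16 together held 7 cells of A and 4 of B, against 368 and 187 cells of F and I, fewer than the 50 cells per library set for a fit, so none was made within them. These few cells still held 9 of the 13 Gata1 UMIs of library A and 5 of the 12 of library B. They also held 16 of 31 and 17 of 22 Klf1 UMIs. In the erythroid-like cluster, the 3 deleted cells of each library summed to 13 and 16 Klf1 UMIs, or 359 and 925 CPM, on either side of the wild-type levels of 662 and 609 CPM. Gfi1b had no UMI in the 7 cells of A and 2 in the 4 cells of B. 

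Among the cells outside clusters 12 and 16, Gata1 was still lower in the deleted group. These cells were not the same mixture in the 2 groups: the Cpa3-led cluster 14 had 214 and 147 wild-type cells against 18 and 12 deleted ones and held 38 and 23 of the wild-type Gata1 UMIs counted here. Neutrophil-like cells numbered 937 and 379 against 60 and 31. The part of this mixture in the difference was not tested. Gata1 outside clusters 12 and 16 had 83 and 69 UMIs in the wild-type libraries (2.31 and 2.19 CPM) and 4 and 7 in the deleted ones (0.239 and 0.352 CPM). Here 168 of 3606 tested genes, or 4.66%, were lower and 77 higher. Gata1 fell by 2.95 on the log2 scale (SE 0.416, edgeR adjusted p = 0.0201), but its adjusted p was 0.0579 without library I, 0.173 without A and 0.242 without B. The fit without B called only 2 genes lower, and that without A called 35.

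Klf1 outside these clusters stood at 1.51 and 1.08 CPM in the wild type and at 0.895 and 0.251 CPM in the deleted group, with a log2 difference of -1.25 (SE 0.642, edgeR adjusted p = 0.323). Gfi1b was at 3.88 and 4.66 CPM in the wild type and at 4.95 and 4.42 CPM in the deleted group. These ranges overlapped, and the log2 difference was 0.09 (SE 0.28, edgeR adjusted p = 0.887). Its sign turned to -0.02 without library F and to -0.04 without library A.

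HSPC-like cells numbered from 389 to 879 per library. In them Gata1 had 23 and 32 UMIs in the wild-type libraries and 0 and 5 in the deleted ones, where the 0 of A allows up to 0.532 CPM. The log2 difference was -3.42 (SE 0.698). It did not pass in the main edgeR fit (adjusted p = 0.0907), in which 9 of 3575 genes (0.252%) were lower and 5 higher. Over the alternatives its edgeR adjusted p ran from 0.00276 to 0.273. It was below 0.05 at a coarser cluster resolution (0.044), without library A (0.0423) and without library B, where only the library with 0 UMIs was left in the deleted group. It was above 0.05 at a finer resolution (0.0671), with library totals (0.0598), with no filter (0.125), without F (0.0818) and without I (0.273). Klf1 was below the filter on low counts there, with 7 and 3 UMIs in the wild type and 7 and 2 in the deleted group.

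Gfi1b remained well detected in HSPC-like cells of both groups. It had 91 and 101 UMIs in the wild-type libraries (14.4 and 17.3 CPM) and 59 and 57 in the deleted ones (10.5 and 9.01 CPM). The ranges did not overlap, and the log2 difference of -0.74 (SE 0.221) did not pass (edgeR adjusted p = 0.212). In each of the HSPC-like clusters 3, 4 and 6, both deleted libraries lay below both wild-type ones for Gfi1b. The share of all genes that separate this way in HSPC-like cells was not counted. The separation is therefore not shown to be particular to Gfi1b. HSPC-like cells gave 71.1% and 63.3% of all Gfi1b UMIs of libraries A and B.

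Gfi1b was low in monocyte-like cells, at 0.52 and 0.908 CPM in the wild type and at 1.85 and 1.65 CPM in the deleted group. That is the opposite direction from HSPC-like cells, but it rests on 3 and 6 UMIs against 7 and 6. Such counts were below the filter for a fit within monocyte-like cells. The edgeR test of the difference between the genotype effects in these 2 classes gave 2.06 on the log2 scale (SE 0.722, adjusted p = 0.0508). It did not pass, while 21.3% of the genes tested passed for the same pair of classes. Over 15 pairs of classes, 12 such tests of a member could be fitted and 0 passed in edgeR, with 3 at an unadjusted p under 0.05.

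**Figure D2:**
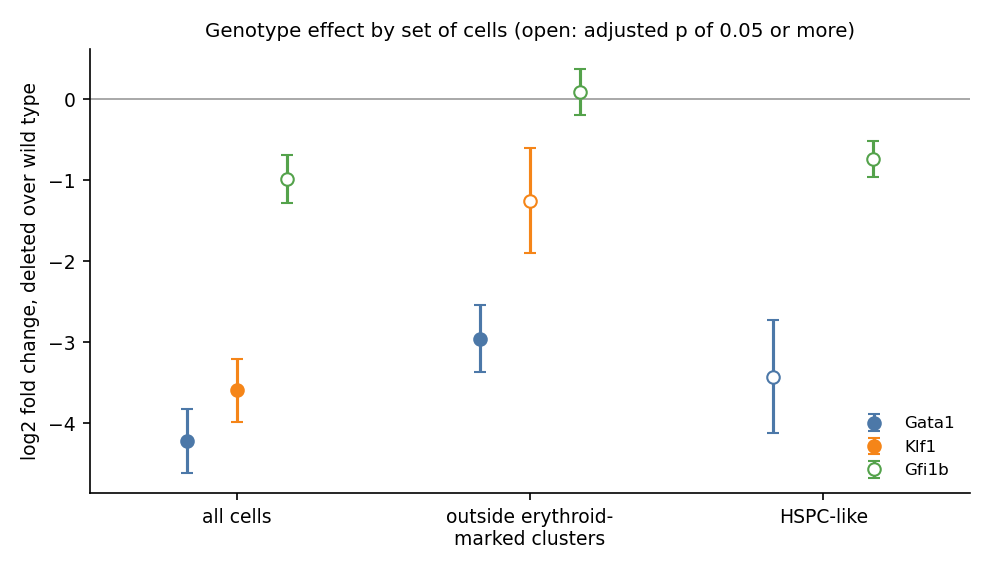
Log2 fold change of each gene, deleted over wild type (y axis), from edgeR fits to all cells, to cells outside the erythroid-marked clusters and to HSPC-like cells. Bars are standard errors worked back from the edgeR F statistic, whose dispersion is shared over genes, with 2 libraries per group. Open points have an adjusted p of 0.05 or more. Gata1 is at -4.22, -2.95 and -3.42, and Gfi1b at -0.98, 0.09 and -0.74.

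Shares of single cells with a UMI were compared next. After thinning, which left out 140 wild-type and 855 deleted cells that were too shallow, 4840 and 4125 cells were kept. A UMI of Gata1 was found in 5.19% and 4.505% of wild-type cells and in 0.327% and 0.306% of deleted ones. Klf1 was found in 5.19% and 3.98% of wild-type cells and in 0.381% and 0.350% of deleted ones. Gfi1b was found in 4.26% and 3.46% of wild-type cells and in 2.29% and 1.84% of deleted ones. The group means for Gfi1b were 3.86% ± 0.571 and 2.06% ± 0.319 (SD, n = 2 libraries each). For each gene both deleted libraries lay below both wild-type ones, and the exact two-sided permutation test of 4 libraries gave p = 0.33, the smallest value it allows. How many of all genes separate this way by detection was not counted, so the separation is not shown to be particular to the 3 genes. Without thinning, the difference between the group means was 9.04 percentage points for Gata1, 7.25 for Klf1 and 5.51 for Gfi1b, in place of 4.53, 4.22 and 1.80.

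Monocyte-like cells, which should lack these factors, gave a background for detection. In thinned monocyte-like cells a Gata1 UMI was found in 1 of 656 wild-type cells (0.152%, exact 95% interval 0.00386 to 0.846%) and in 1 of 910 deleted ones. Klf1 was found in 2 of 656 and in 0 of 910, which allows a share of up to 0.33%, and Gfi1b in 1 of 656 and 5 of 910. The median depth before thinning was 19116 UMIs in these wild-type cells and 7545 in the deleted ones. Gata1 in HSPC-like cells was above that background in the wild type (15 of 891 cells, 1.68%, interval 0.945 to 2.76%) and close to it in the deleted group (3 of 1436, 0.209%). Klf1 in HSPC-like cells was at background in both groups, at 0.337% and 0.348%. Gfi1b in HSPC-like cells was far above it in both, at 6.40% of wild-type cells (interval 4.88 to 8.21%) and 4.04% of deleted ones (3.08 to 5.19%). These intervals cover counting error only, and the median depth of HSPC-like cells before thinning was 12857 and 7635 UMIs.

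The 3 genes were found together in single wild-type cells more often than their separate shares would give. In library F, Gata1 and Klf1 shared 57 cells where independence over all cells gave 7.88, a ratio of 7.23, and in library I the ratio was 9.93. The ratio was 5.55 and 4.71 for Gata1 with Gfi1b, and 5.24 and 6.47 for Klf1 with Gfi1b. Genes that share a cluster give high ratios over all cells even if they are independent within it. In thinned wild-type cells, Gata1 and Klf1 were found in 36.3% and 28.7% of cluster 12 and in 47.1% and 87.1% of cluster 16. Ratios within a cluster were not computed, so co-detection beyond shared clusters is not shown. All 3 genes were seen in 15 of 2931 cells of F and 7 of 1909 cells of I after thinning, and in 108 wild-type cells without thinning. Of those 108 cells, 79 were in cluster 12 and 28 in cluster 16. The thinned cells with all 3 genes were shallower than those with none, with median depths of 11105 UMIs (F) and 11433 UMIs (I) before thinning, against 13337 and 18243 in cells with none. Of thinned cells with Gata1, 57 of 152 in F and 34 of 86 in I also had Klf1 (37.5% and 39.5%). In the deleted libraries this held for 0 of 6 and 2 of 7 cells, too few to compare.

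Most detections were of 1 UMI. In the wild-type libraries, 84.2% and 74.4% of thinned cells with Gata1 had 1 UMI of it, and 80.8% and 80.3% of those with Gfi1b. For Klf1, 57.2% and 53.9% had 1 UMI, and 1 cell of F reached 9 after thinning.

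In the deleted group, where Gata1 and Klf1 were both rare, Gfi1b was mostly seen without them. Of the thinned cells with Gfi1b, 55 of 125 in library F and 24 of 66 in library I also had Gata1 or Klf1 (44.0% and 36.4%). In the deleted libraries this held for 0 of 42 cells of A, which allows a share of up to 7.14%, and for 1 of 42 cells of B (2.38%, exact 95% interval 0.0603 to 12.6%). The group means were 40.2% ± 5.4 and 1.19% ± 1.68 (SD, n = 2 libraries each, exact permutation p = 0.33).

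Whether cells with Gfi1b but neither Gata1 nor Klf1 differed in frequency depended on how cells were thinned. They made up 2.39% and 2.20% of thinned cells in the wild type and 2.29% and 1.79% in the deleted group. The difference of the means, 0.255 percentage points, was smaller than the spread between libraries (SD of the difference 0.374, exact permutation p = 0.667). Another random draw at the same depth gave a difference of 0.569 points (SD 0.197), and requiring at least 2 UMIs gave 0.439% against 0.147%, and in both the deleted libraries lay below the wild-type ones (exact permutation p = 0.33). Its sign turned with thinning to 9777 UMIs, which gave -0.254 points, and it was 1.40 points without thinning. In unthinned cells, 126 of the 216 wild-type cells with Gfi1b alone (58.3%) and 104 of the 153 deleted ones (68.0%) were HSPC-like.

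**Figure D3:**
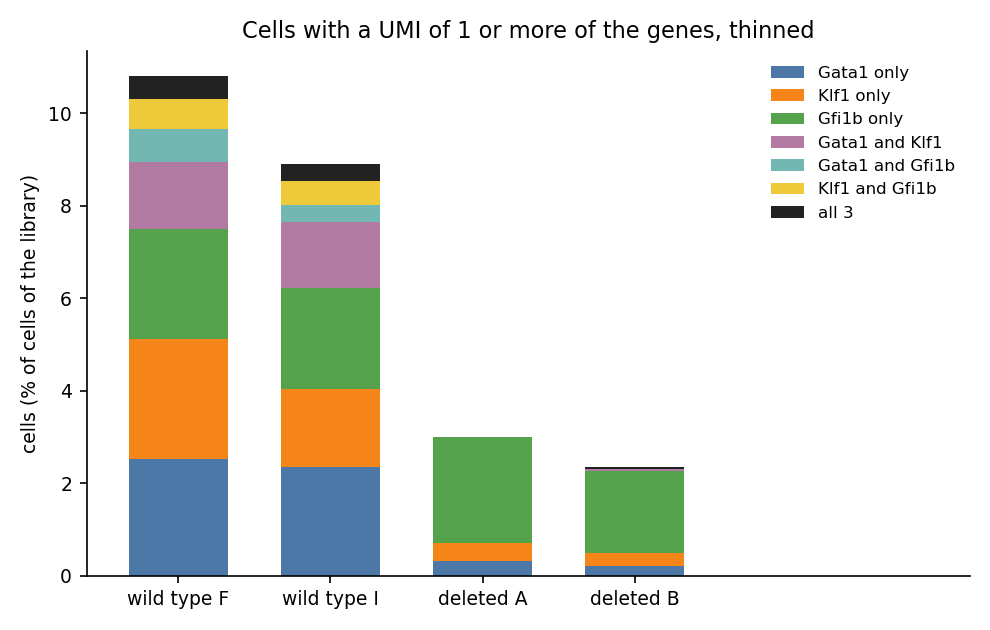
Share of cells of each library (y axis, percent) with at least 1 UMI of Gata1, Klf1 or Gfi1b after thinning, split by which of the genes were found together. The wild-type bars reach 10.8% and 8.91% and the deleted ones 2.99% and 2.36%, and in the deleted libraries the largest block is Gfi1b alone.

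The cells that held Gfi1b alone carried progenitor and myeloid transcripts in both groups. They were not the same mixture of clusters in the 2 groups. Without thinning, 20 of the 216 wild-type ones and 0 of the 153 deleted ones were in cluster 12. After thinning, which can remove the only Gata1 or Klf1 UMI of a cell, 89 wild-type and 0 deleted cells of cluster 12 had Gfi1b. The part of this mixture in the shares below was not tested. The myeloid genes Mpo and Spi1 were less frequent in the Gfi1b-alone cells than in cells with none of the 3 genes. Gata2 was rare in the Gfi1b-alone cells of the deleted group. Gata2 was found in 17 of 70 such cells of F, 14 of 42 of I, 0 of 42 of A and 2 of 41 of B, or in 27.7% and 2.41% of pooled wild-type and deleted cells. Without thinning the shares were 40.3% and 9.80%. They were not tested, since cells of a library are not replicates, and Gata2 itself was lower over all deleted cells. Cpa3 was found in 20 of 112 and 0 of 83, where a count of 0 allows up to 3.61%. Cd34, the antigen of the sort, was found in 61.6% and 81.9% of them, Spi1, which encodes the myeloid factor PU.1, in 58.0% and 68.7%, and Mpo, a granule enzyme, in 64.3% and 75.9%. In cells with none of the 3 genes, Cd34 was found in 51.9% of wild-type and 72.1% of deleted cells, and Gata2 in 6.52% and 3.49%. Mpo was found in 89.5% (F), 90.1% (I), 85.0% (A) and 88.5% (B) of the cells with none. Spi1 was found in 78.9%, 74.9%, 77.9% and 78.1% of them, and Cpa3 in 6.12%, 8.11%, 0.224% and 0.358%, in the same order.

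Wild-type cells with Gata1 and Klf1 together looked different from those with Gfi1b alone. Of the 91 such cells after thinning, 6 had Cd34 (6.59%), 16 had Spi1 (17.6%), 1 had Irf8 and 31 had Hba-a1 (34.1%). Gata2 was found in 26.4% of them, close to its share in cells with Gfi1b alone. Cells with Gata1 but not Klf1 had Gata2 most often, in 63 of 147 (42.9%), with Cpa3 in 31.3% and the eosinophil granule gene Prg2 in 7.48%. Cells with Klf1 but not Gata1 had Hba-a1 in 27.7% and Cpa3 in 10.2% of 137 cells. In the deleted group only 2 cells had Gata1 with Klf1, so these patterns were not compared there. Platelet factor Pf4 was found in 12 of the 112 wild-type cells with Gfi1b alone, and Kit, the other antigen of the sort, in 25.9%.

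**Figure D4:**
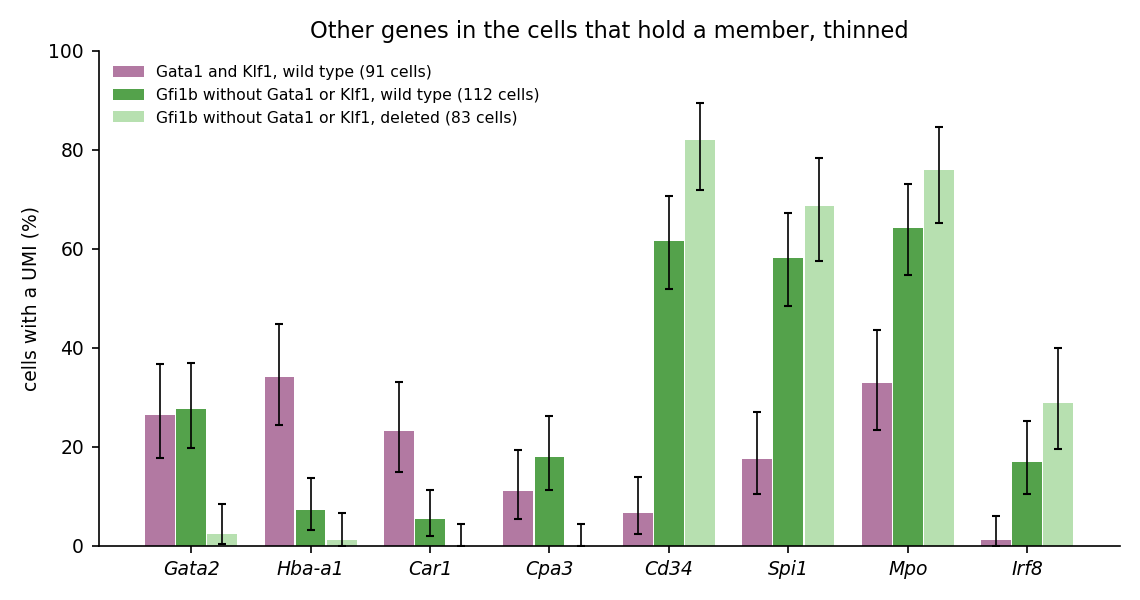
Share of thinned cells with a UMI of 8 other genes (y axis, percent; bars with exact 95% intervals over pooled cells of a group) in wild-type cells with Gata1 and Klf1, wild-type cells with Gfi1b alone and deleted cells with Gfi1b alone. Cd34 is in 6.59%, 61.6% and 81.9% of these cells, and Gata2 in 26.4%, 27.7% and 2.41%.

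The genes whose levels ran most like each member's over the wild type were found from 31 sums of a cluster in a library, which share their libraries and are led by clusters 12 and 16. Pearson's r is given as a description. For Gata1 these were Icam4, Sord, Smim1, Samd14 and Hk1 (r from 0.87 to 0.847). For Klf1 they were Tspo2, Ermap, Smim1, Cited4 and Icam4 (r from 0.948 to 0.92). They include genes of blood group proteins of the red cell surface, such as Ermap and Icam4. For Gfi1b they were Socs2, Ube2e3, Hmgb3, Cyb5a and Bex4 (r from 0.889 to 0.871), none of them shared with the other lists. Between the members, r was 0.799 for Gata1 and Klf1, 0.732 for Gata1 and Gfi1b, and 0.701 for Klf1 and Gfi1b.

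Of the 8 different genes listed for Gata1 or Klf1, Tspo2 fell by 6.57, Ermap by 4.30, Samd14 by 3.54, Smim1 by 3.49 and Icam4 by 2.11 on the log2 scale (edgeR adjusted p from 0.00726 to 0.0443), although none of these 5 calls held without library A or without library B. Sord, Hk1 and Cited4 did not pass, but their differences were not alike in size. With 1 library left out, the log2 difference ran from -4.07 to -2.42 for Cited4, -0.50 to -0.32 for Hk1 and -0.28 to 0.06 for Sord. Socs2, which encodes a suppressor of cytokine signalling, was the closest match to Gfi1b in the wild type and rose by 3.70 (SE 0.253, edgeR adjusted p = 0.00359). Its level was 1.92 and 1.56 CPM in the wild type and 23.1 and 23.99 CPM in the deleted group. The other neighbours of Gfi1b had log2 differences from -0.10 to 0.13, and none passed.

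Genes that work with these factors were read from the same fit over all cells, in which the median log2 difference of all tested genes was 0.00. In that fit 6.1% of all tested genes passed as lower and 2.76% as higher. A single call in a list of 13 genes is near these shares. Of 13 tested partners of GATA1, only Gata2 fell and only Ikzf1 rose, by 0.25 (SE 0.0501, edgeR adjusted p = 0.041, lost without any 1 library). Zfpm1, which encodes the GATA1 cofactor FOG1, was at 11.1 and 8.96 CPM in the wild type and at 5.17 and 4.52 CPM in the deleted group (adjusted p = 0.0936, edgeR). Of 7 tested genes listed with the corepressors of GFI1B, only Gfi1 fell, by 1.72 (edgeR adjusted p = 0.0207). That call did not hold without library A or without library B. Gfi1 encodes a relative of GFI1B and not a corepressor, and no other gene of this list passed. Gse1 and Hdac1 had log2 differences of -0.39 and -0.18 and did not pass.

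Among 11 tested erythroid regulators other than the 3 genes, Myb fell by 0.79 (SE 0.057, edgeR adjusted p = 0.00359) and Cited2 by 0.83 (adjusted p = 0.0478 in edgeR, but 0.174 without A and 0.181 without B), while Ikzf1, which is also in this list, rose. The genes that the red cell uses fell broadly. Of 19 tested erythroid target genes, 16 fell and 0 rose, with a median log2 difference of -3.06. Over all tested genes, 6.1% passed as lower and 2.76% as higher. Hba-a1, an alpha-globin gene, fell from 453 and 661 CPM to 70.9 and 54.7 CPM, Blvrb, a biliverdin reductase, fell by 1.84, and Car2 fell by 1.25 on the log2 scale. Of 10 tested heme synthesis genes, 6 fell, with a median of -0.58. Alas1 fell by 2.09 and the erythroid enzyme gene Alas2 by 4.54, the latter with an edgeR adjusted p of 0.0150 that was 0.106 without A and 0.0781 without B.

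Other lineages moved as well. Of 11 tested myeloid regulators, Cebpe, a factor of granulocyte maturation, fell by 2.96, Gfi1 fell, and Irf8, a factor of monocytes and dendritic cells, rose by 0.75 (edgeR adjusted p = 0.0098, but 0.0592 without A). Of 17 measured erythroid markers 16 fell, and their summed level was 2677 and 4171 CPM in the wild type and 580.2 and 519 CPM in the deleted group. Of 13 neutrophil markers 11 fell, of 5 mast cell or basophil markers 4 fell, and both eosinophil markers fell, while 4 of 13 monocyte and 4 of 11 HSPC markers rose and none of the 4 megakaryocyte markers passed. The summed level of the 5 mast cell and basophil markers was 187 and 176 CPM in the wild type and 66.6 and 66.5 CPM in the deleted group. The part of these other cell types in the levels of Gata1 and Gfi1b over all cells was not tested.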

How the data were processed

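Gene UMI counts of single cells, deposited by the authors for 3624 genes and 9960 cells, were used as whole-number counts, and a second table gave each cell's genotype and library. Its name marks the count table as a subsample of cells. Per the submitters' processing notes, Cell Ranger 2.0.2, Seurat 2.3.4 and genome build mm10 were used. How genes and cells were chosen for the deposited tables is not given in the sources used here. The letters are not tied to sample numbers in the labels. Libraries held 40117680 (F), 33913118 (I), 16837863 (A) and 19921052 (B) UMIs.

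Counts were summed per library and tested with edgeR 4.0.16 (filterByExpr, TMM, quasi-likelihood test, Benjamini-Hochberg over all genes tested, threshold 0.05). The SE of an edgeR log2 difference is its absolute value divided by the square root of the quasi-likelihood F statistic. DESeq2 1.42.0 was an alternative. CPM are UMIs per 1000000 UMIs of the table. Cells were clustered with scanpy 1.11.5 (1000 variable genes without the 3 members, 30 components, Leiden resolution 1.0) and named from marker lists. A class was fitted where every library had at least 50 cells. For detection, UMIs were drawn at random down to 4346 per cell (10th percentile of depth). Intervals are exact binomial at 95%. Shares of 0 have a limit of 3 counts. The fits were tested on simulated counts.

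The genes and lists were chosen with earlier results of these data known. Named genes were the members, the 5 genes most like each over wild-type cluster sums of at least 30 cells (log2 of CPM plus 1), up to 3 genes of smallest p per pathway list, and 11 fixed companion genes. Alternatives were other normalizations, filters, depths, cluster resolutions and leaving out each library.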

Additional observations from a re-analysis of the deposited data

Results flagged for a closer look

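Gfi1b moved in opposite directions in 2 classes of cells for which the difference was not tested, because its counts there were below the filter on low counts. In monocyte-like cells both deleted libraries lay above both wild-type ones, with means of 1.75 and 0.714 CPM, a difference of 1.04 CPM. In cluster 13, an unnamed cluster led by the basophil protease gene Mcpt8, both lay below, with means of 1.503 and 3.06 CPM. These values rest on 3 and 6 UMIs in the wild-type and 7 and 6 in the deleted monocyte-like cells, and on 5, 4, 1 and 3 UMIs in cluster 13 of libraries F, I, A and B.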

How the results depend on the processing

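No paired analysis was possible because the library letters carry no replicate number. For Gata1, Klf1 and Gfi1b, 73 of 85 alternative fits kept the direction and the side of the threshold. Over all cells, leaving out 1 library gave log2 differences from -4.44 to -4.00 for Gata1, from -4.03 to -3.22 for Klf1 and from -1.13 to -0.84 for Gfi1b. Gfi1b passed in DESeq2's Wald test (-0.99) and when Xist was a covariate (-0.98). Outside the erythroid-marked clusters, leaving out 1 library gave -3.23 to -2.76 for Gata1, -2.44 to -0.55 for Klf1 and -0.04 to 0.20 for Gfi1b, whose sign turned to -0.02 without F and to -0.042 without A. In HSPC-like cells Gata1 passed at resolution 0.6 (-3.61) and ranged from -7.76 to -2.56 with 1 library left out, and Gfi1b from -0.89 to -0.59.

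Counts of genes moved more. Over all cells, DESeq2 called 307 higher and 427 lower, the Xist term 158 higher, and leaving out 1 library 10 to 73 higher and 56 to 234 lower. Outside the erythroid-marked clusters, DESeq2 called 125 higher and 273 lower, and leaving out 1 library 0 to 62 and 2 to 203. In HSPC-like cells, 11 higher and 33 lower were called at resolution 1.5, 13 and 21 with library totals, 21 lower at resolution 0.6, and 3 to 42 and 11 to 143 with 1 library left out. With 1 library left in a group, it is assumed to vary like the other group.

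Differences in shares of cells, in percentage points, were 9.04, 6.90 and 0.882 for Gata1 without thinning, with thinning to the median depth, and with at least 2 UMIs. They were 7.25, 5.63 and 1.93 for Klf1, 5.51, 2.87 and 0.603 for Gfi1b, and 2.18, 1.51 and 0.0 for all 3 genes together. The share of Gfi1b cells with Gata1 or Klf1 differed by 47.1 without thinning and 47.96 at the median depth. The share of Gata1 cells with Klf1, which rests on 13 deleted cells, differed by 24.2. It differed by 27.4 without thinning, 53.6 at the median depth (5 deleted cells), 7.09 with another draw, 17.4 with at least 2 UMIs and 9.95 to 38.5 with 1 library left out. The share with Gfi1b alone differed by 1.40 and -0.25, by 0.569 with another draw, by 0.292 with at least 2 UMIs and by 0.0078 to 0.502 with 1 library left out. Leaving out 1 library gave 4.19 to 4.87 for Gata1, 3.62 to 4.82 for Klf1, 1.40 to 2.20 for Gfi1b and 35.2 to 42.8 for the share of Gfi1b cells with the others. Among other genes named, 3 that did not pass changed sign: Ube2e3 to 0.052 with library totals and 0.0084 with thinned cells, Bex4 to 0.047 with library totals and 0.044 with equal cells, and with 1 library left out Ube2e3 ranged from -0.044 to 0.029, Bex4 from -0.086 to 0.065 and Sord from -0.28 to 0.062. The cause of these changes was not tested. With 12 or 13 Gata1 UMIs per deleted library, depth limits what can be said of Gata1 within any class of deleted cells.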
